A study of Mus musculus with 16 samples.

Results

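The 40 genes described here belong to the unfolded protein response of the endoplasmic reticulum (ER) and to the integrated stress response. They were chosen by name as genes of these pathways, with no measured value in the rule. Earlier results of these data were known when the genes were chosen. They comprise 13 ER chaperones and folding enzymes, 4 genes of ER-associated degradation, 6 stress sensors and transcription factors, 5 targets and feedback regulators of the integrated stress response, 7 genes of amino acid synthesis, one-carbon metabolism and amino acid transport, and 5 aminoacyl-tRNA synthetases. All 40 were on the array and all 40 passed the filter on dim probes, out of 17465 features (a named gene or a probe without one, each read by its brightest probe) that entered the tests. They were read by 71 probes, 68 of them kept. The probe standing for each gene was well above background on all 16 arrays and saturated on none.

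RNA came from adherent peritoneal macrophages of male mice of the strain BALB/cByJ-Lpin1fld/J, measured on single-colour arrays to ask how lipin-1, the phosphatidate phosphatase that is the product of Lpin1, bears on gene expression after LPS, a bacterial ligand of Toll-like receptor 4. Control mice were heterozygotes of this strain, so that they too carry the mutation on 1 allele, and fld mice (fatty liver dystrophy) carry it in the whole animal rather than in macrophages alone. Cells of each genotype were left untreated or received LPS at 100 ng/ml for 5 h in medium without serum, with 4 arrays in each of the 4 groups. The design text names 4 mice of each genotype, their age is not given in the labels, and the labels tie no array to a mouse, so the spread behind a p-value may be partly technical.

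The unfolded protein response is set off when unfolded proteins gather in the ER. The membrane sensors Ern1 (IRE1), Eif2ak3 (PERK) and Atf6 then act through the transcription factors Xbp1, Atf4 and cleaved Atf6 to raise chaperones, degradation genes and amino acid supply. The integrated stress response shares Atf4 with this pathway but can also be started by kinases that sense missing amino acids, viral RNA or missing haem. In macrophages, activation is known to place a high demand on secretion, and Xbp1 is known to act in the production of cytokines.

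A level here is the log2 processed intensity minus the array's 75th percentile, so that a level of 0 is the 75th percentile of that array, and a log2 difference of 1 is a doubling. Each array had 58.7% to 65.4% of its spots well above background, and correlations between replicates ran from 0.961 to 0.993. Each group lay on a slide of its own, and effects of slide and group cannot be told apart. The mean of 3 Lpin1 probes was between -3.53 and -2.86 on control arrays, between -6.72 and -5.46 on fld replicates 1 to 3, and -3.03 to -1.62 on the pair of arrays called fld replicate 4. Another Lpin1 probe separated the genotypes less, at -1.81 to -1.30 on control arrays, -2.15 to -1.40 on fld replicates 1 to 3, and -0.63 and -0.33 on replicate 4. The mutant group is therefore named as labelled fld. Results that rest on it include that pair unless stated, and some are also given without it. All 10 macrophage markers were well above background in every group. With LPS 2 of them were called higher and 2 lower in control cells, and 1 higher and 4 lower in cells labelled fld. Of the 5 T cell markers only Cd3e was called, higher in arrays labelled fld than in control arrays (0.85 without LPS, 1.41 with it). All 7 B cell markers were well above background in every group. Their summed signal (as a multiple of the 75th percentile) ran from 91.6 to 162 untreated and 83.7 to 93.1 with LPS in control arrays, and from 96.3 to 137 and 63.1 to 89.7 in arrays labelled fld. The summed signal of the 4 neutrophil markers on the array (5 listed) ran from 1.25 to 2.30 untreated and 9.14 to 15.9 with LPS in control arrays, and from 1.28 to 1.63 and 19.1 to 26.8 in arrays labelled fld. Of these, S100a8 and Camp were called higher in both LPS comparisons. The other 2 passed in neither, with log2 differences of -1.39 and 0.77 for S100a9 and -0.03 and 0.35 for Mpo in the 2 genotypes. With LPS, 3 of the 4 (S100a8, S100a9 and Mpo) were called higher in arrays labelled fld than in control arrays. Plasma cell markers, whose cells hold much ER, summed to 14.6 to 25.1 untreated and 17.1 to 24.6 with LPS in control arrays, and to 17.4 to 24.9 and 15.5 to 21.1 in arrays labelled fld. Their marker Tnfrsf17 did not rise above background on any of the 16, while the other 5 were well above it on all 4 arrays of every group. Dendritic cell markers summed to 4.98 to 5.96 untreated and 6.36 to 9.43 with LPS in control arrays, and to 5.12 to 6.09 and 6.72 to 10.6 in arrays labelled fld, with 1 and 2 of 4 tested markers called higher with LPS, and 1 and 2 called higher in arrays labelled fld than in control arrays without and with LPS. Mast cell markers summed to 15.3 to 82.2 and 66.9 to 130 in control arrays and to 33.6 to 124 and 43.8 to 131 in arrays labelled fld, and none of these 6 was called. Of the 5 mesothelial markers, Lrrn4 and Wt1 stayed at background throughout, but Msln exceeded it well on each of the 4 arrays per group. Krt19 did the same except among LPS arrays labelled fld, where 3 of 4 did. Upk3b did so on 2 untreated control arrays and 1 untreated array labelled fld, and on none with LPS. Msln and Krt19 were the 2 tested, and neither was called in the LPS or genotype comparisons. The part of these other cells in the results was not tested.

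LPS raised 24 of the 40 genes in control cells and 20 in cells labelled fld, and lowered none in either (limma, Benjamini-Hochberg adjusted p under 0.05). In control cells 14.5% of all features were called higher and 14.9% lower, and in cells labelled fld 21.6% and 18%. The median log2 difference of the 40 genes was 0.56 in control cells and 0.55 in cells labelled fld, where the median over all features was 0.03 and 0.07. By role, 11 of 12 amino acid and tRNA synthetase genes, 8 of 11 sensors, factors and regulators and 5 of 17 chaperone and degradation genes rose in control cells, and the difference between these classes was not tested. In cells labelled fld the counts were 10 of 12, 7 of 11 and 3 of 17. The medians of these classes were 0.67, 0.88 and 0.31 in control cells and 0.58, 0.85 and 0.12 in cells labelled fld. Without the arrays called fld replicate 4, the medians in cells labelled fld were 0.47, 0.88 and 0.12 for the classes. The median of the 40 genes was then 0.42, and that of all features 0.05. With a normexp background 2 genes were called higher in each genotype, as were 499 and 592 of all 17465 features. Spots of extreme local background (10, 7 and 4 on control LPS replicates 2 and 4 and fld LPS replicate 1) were then reset. After that 23 and 20 genes were called higher, and 2085 and 5323 of all features. In these bulk samples, fewer cells of a type and less RNA per cell cannot be told apart.

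**Figure D1:**
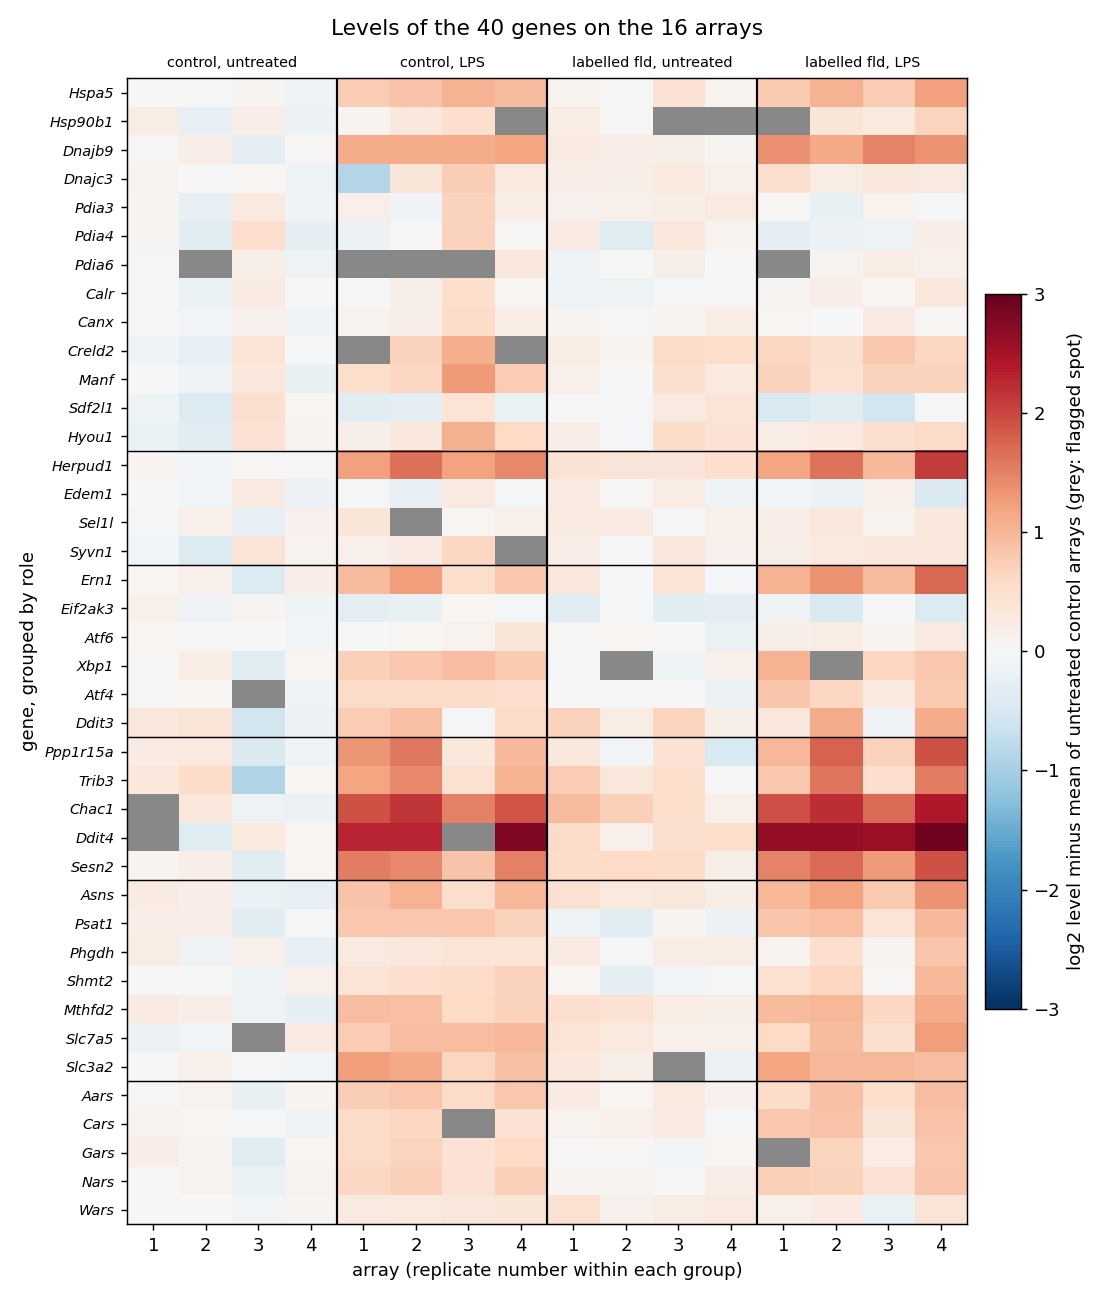
Level of each of the 40 genes (rows, by role) on each of the 16 arrays (columns), as the log2 difference from the mean of the untreated control arrays of that gene. Grey cells are spots flagged by the scanner software. The warm blocks in the LPS columns lie in the regulator, amino acid and tRNA synthetase rows, and among the chaperone and degradation rows mainly in Hspa5, Dnajb9 and Herpud1.

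The calls overlapped between genotypes, and no share of such overlap over all features is given here. All 20 genes called in cells labelled fld were among the 24 called in control cells, so that they make up 20 of 24 calls in control cells and 20 of 20 in the other genotype. The 4 called in control cells alone were Creld2, Manf, Trib3 and Wars, and the difference between the genotypes was not past the test for any of them. The arrays of the LPS and untreated groups did not overlap, with LPS higher, for 25 genes in control cells and 22 in cells labelled fld, where 16.6% and 20.9% of all features did so. Pdia3 and Sdf2l1 lay wholly lower with LPS in cells labelled fld, as 16.7% of features did, and neither passed the test. Without the arrays called fld replicate 4, 18 genes were called higher in cells labelled fld, as were 2812 of all 17465 features (3777 with that pair).

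**Figure D2:**
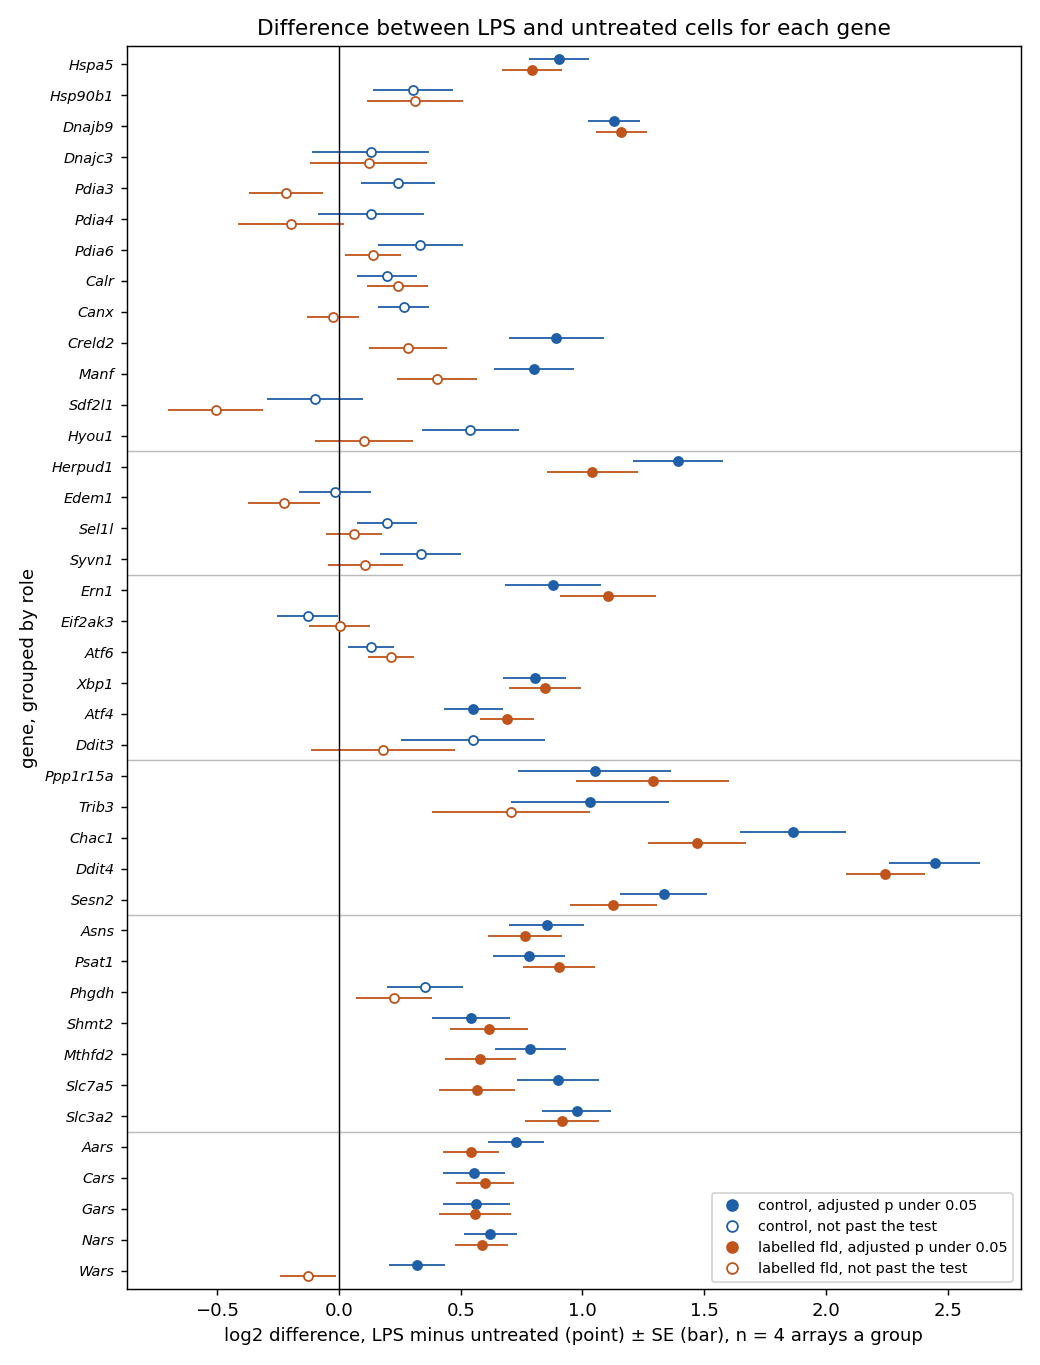
Log2 difference between LPS and untreated arrays for each gene (points) with its standard error from limma (bars), in control cells (blue) and cells labelled fld (orange), by role. Filled points have an adjusted p under 0.05. Most chaperones have open points, and Ddit4 lies farthest to the right at 2.45 and 2.24.

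The promoters of the members differed in the elements they hold. RefSeq windows were held for 33 of the 40 genes, and the 250 bases before the transcription start were searched on both strands. The ER stress response element (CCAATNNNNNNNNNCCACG), the binding site of ATF6 and XBP1 together with NF-Y, was found in 8 of the 15 chaperone and degradation genes with a window and in none of the other 18, against 0.13% of all 27025 genes in the table (35 genes). The core of the amino acid response element (TGATGNAA), a composite site known to bind ATF4 with a C/EBP partner, was found in 5 members (Herpud1, Chac1, Asns, Aars and Gars) and in 3.91% of all genes. The short element CCACG, which is also the end of the full element, was in 22 of 33 members and 31% of all genes. The core of the UPR element (TGACGTGG) was in none of the 33 and in 0.603% of all genes. A match is a run of letters in this window and no measure of binding.

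Of the 8 genes with a full ER stress response element, 2 (Hspa5 and Creld2) were called higher with LPS in control cells, or 25%. In cells labelled fld 1 (Hspa5) was, or 12.5%. The other 6 were Hsp90b1, Dnajc3, Pdia6, Calr, Canx and Syvn1. Of all 17 tested genes with the element, which include the 8 members, 23.5% and 17.6% were called higher in the 2 genotypes. Of the 9 outside the members 22.2% were called higher in each genotype, and 2 lower in each. Among the 25 members without the element 68% and 64% were called higher. Those 25 hold every member with a window outside the chaperone and degradation class. All 5 genes with the amino acid response element core were called higher in both. Of the 301 tested genes in the table with that core, these 5 included, 18.9% were called higher in control cells and 24.3% in cells labelled fld. Of the 296 outside the members 17.6% and 23% were. Among the 28 members without the core 50% and 42.9% were called higher. These counts are a description, since such elements were first defined in genes of this kind.

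Windows are printed from RefSeq on GRCm38.p6, 5′ to 3′ on the strand of the gene, with the letters of the motifs above (or of their reverse complement) in capitals. Hspa5, Creld2 and Hsp90b1 show the full element in genes that did and did not pass the test, and Herpud1, Chac1, Asns, Aars and Gars show the amino acid response element core.
Hspa5, chr2:34771840-34772089 (plus strand): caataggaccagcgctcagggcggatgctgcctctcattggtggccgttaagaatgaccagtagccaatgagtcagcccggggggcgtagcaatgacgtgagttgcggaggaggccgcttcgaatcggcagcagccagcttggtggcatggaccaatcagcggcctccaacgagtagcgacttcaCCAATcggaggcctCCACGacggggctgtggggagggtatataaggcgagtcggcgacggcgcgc
Creld2, chr15:88819396-88819645 (plus strand): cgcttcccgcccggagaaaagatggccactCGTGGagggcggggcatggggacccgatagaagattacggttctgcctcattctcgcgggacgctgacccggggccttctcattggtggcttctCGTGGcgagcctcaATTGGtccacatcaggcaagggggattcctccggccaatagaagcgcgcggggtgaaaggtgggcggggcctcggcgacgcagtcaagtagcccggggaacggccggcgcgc
Hsp90b1, chr10:86705445-86705694 (minus strand): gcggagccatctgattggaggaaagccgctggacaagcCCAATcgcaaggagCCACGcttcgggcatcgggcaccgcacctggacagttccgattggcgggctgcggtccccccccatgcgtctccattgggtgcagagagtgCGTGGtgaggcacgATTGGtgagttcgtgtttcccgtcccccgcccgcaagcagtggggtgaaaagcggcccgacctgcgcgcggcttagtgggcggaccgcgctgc
Herpud1, chr8:94386179-94386428 (plus strand): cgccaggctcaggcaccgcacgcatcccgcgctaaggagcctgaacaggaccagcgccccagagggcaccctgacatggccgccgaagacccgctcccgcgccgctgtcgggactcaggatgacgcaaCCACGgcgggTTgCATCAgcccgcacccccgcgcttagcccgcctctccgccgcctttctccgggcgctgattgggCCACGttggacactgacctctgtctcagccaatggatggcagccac
Chac1, chr2:119350992-119351241 (plus strand): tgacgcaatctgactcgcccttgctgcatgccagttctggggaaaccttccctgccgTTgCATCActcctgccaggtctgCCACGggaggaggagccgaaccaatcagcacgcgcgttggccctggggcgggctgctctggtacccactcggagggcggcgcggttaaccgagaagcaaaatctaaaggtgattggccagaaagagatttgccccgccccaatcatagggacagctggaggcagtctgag
Asns, chr6:7693210-7693459 (minus strand): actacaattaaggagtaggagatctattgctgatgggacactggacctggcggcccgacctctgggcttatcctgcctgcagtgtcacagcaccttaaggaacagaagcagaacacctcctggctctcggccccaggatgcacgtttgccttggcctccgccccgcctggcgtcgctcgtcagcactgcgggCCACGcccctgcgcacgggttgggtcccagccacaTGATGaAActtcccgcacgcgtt
Aars, chr8:111033592-111033841 (plus strand): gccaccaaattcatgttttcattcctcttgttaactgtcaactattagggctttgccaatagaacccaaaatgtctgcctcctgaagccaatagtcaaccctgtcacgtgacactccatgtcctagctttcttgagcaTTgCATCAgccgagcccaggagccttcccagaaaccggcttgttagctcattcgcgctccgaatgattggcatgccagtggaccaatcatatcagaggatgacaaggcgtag
Gars, chr6:55037751-55038000 (plus strand): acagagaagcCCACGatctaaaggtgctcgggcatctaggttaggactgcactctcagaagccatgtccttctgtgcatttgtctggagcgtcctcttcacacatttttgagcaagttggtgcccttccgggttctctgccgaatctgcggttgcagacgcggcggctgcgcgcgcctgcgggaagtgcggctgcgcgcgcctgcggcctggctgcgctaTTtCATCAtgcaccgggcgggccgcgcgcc
In the window of Hspa5 the full element ends 47 bases before the start of transcription. Hsp90b1 carries it on each strand, ending 194 and 89 bases before the start. Chac1, Herpud1 and Aars hold the same 8 letters of the amino acid core on the reverse strand, from base 193 before the start in Chac1 and from base 112 in both Herpud1 and Aars. The short CCACG is in capitals as well in these windows.

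Among the 13 ER chaperones and folding enzymes, LPS raised Hspa5, Dnajb9, Creld2 and Manf in control cells, and Hspa5 and Dnajb9 in cells labelled fld. The 4 with the largest changes among those called are given on every array. Hspa5 read 6.23, 6.22, 6.29 and 6.11 on untreated control arrays and 6.96, 7.08, 7.25 and 7.18 with LPS. Values in cells labelled fld were 6.33, 6.21, 6.64 and 6.31 untreated and 7.0, 7.26, 6.97 and 7.43 with LPS. Hspa5 (gene 14828) encodes BiP, the abundant chaperone that holds the stress sensors inactive. Hspa5 differed by 0.90 (SE 0.12, adjusted p = 6.6e-05) on the log2 scale in control cells and by 0.79 (SE 0.12, adjusted p = 1.9e-04) in cells labelled fld. Every LPS array lay above every untreated array of its genotype. Dnajb9 read 1.49, 1.64, 1.18 and 1.49 on untreated control arrays and 2.55, 2.56, 2.57 and 2.63 with LPS. Dnajb9 was at 1.69, 1.66, 1.63 and 1.54 on untreated arrays labelled fld and at 2.82, 2.58, 2.95 and 2.80 on those with LPS. With LPS, Dnajb9 had a log2 difference of 1.13 (SE 0.11, adjusted p = 2.5e-06) in control cells and 1.16 (SE 0.11, adjusted p = 1.9e-06) in cells labelled fld. Dnajb9 (gene 27362) encodes ERdj4, a BiP co-chaperone that is a target of Xbp1. Its LPS arrays were tightly grouped and far above the untreated ones, and its other 2 probes gave differences of 1.21 and 1.21 in control cells.

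Creld2 and Manf, both secreted proteins induced by ER stress, moved less evenly. Creld2 read 5.32, 5.20, 5.85 and 5.42 on untreated control arrays and 6.15 and 6.54 (replicates 1 and 4 flagged) with LPS. Untreated arrays labelled fld read 5.67, 5.54, 5.99 and 5.98 for Creld2, and those with LPS 6.07, 5.92, 6.25 and 6.08. This gave Creld2 a log2 difference of 0.89 (SE 0.20, adjusted p = 0.00403) in control cells and 0.29 (SE 0.16, adjusted p = 0.171) in cells labelled fld. The Creld2 (gene 76737) value in control cells rests on 2 LPS arrays, because replicates 1 and 4 were flagged, and with these spots used they read 5.80 and 5.96. The control difference was then 0.66 (adjusted p = 0.00912). Without control LPS replicate 3 it was 0.70 (adjusted p = 0.0531). In cells labelled fld the Creld2 ranges overlapped at 5.92 to 5.99. Manf read 4.18, 4.06, 4.50 and 3.95 on untreated control arrays and 4.70, 4.80, 5.44 and 4.94 with LPS. For the arrays labelled fld, Manf came to 4.32, 4.16, 4.65 and 4.48 untreated and 4.86, 4.62, 4.86 and 4.86 with LPS. Its log2 difference from untreated was 0.80 (SE 0.16, adjusted p = 0.00185) in control cells and 0.40 (SE 0.16, adjusted p = 0.0633) in cells labelled fld. Manf (gene 74840) did not overlap in control cells, and in cells labelled fld LPS replicate 2 lay just under untreated replicate 3. Manf passed the test in cells labelled fld without control LPS replicate 3 (adjusted p = 0.0281) and without fld untreated replicate 3 (0.49, adjusted p = 0.0439).

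The other 9 chaperones and folding enzymes did not pass the test in either genotype. They are Hsp90b1 (the ER form of Hsp90), Dnajc3 (an inhibitor of Eif2ak3), the disulfide isomerases Pdia3, Pdia4 and Pdia6, the lectin chaperones Calr and Canx, Sdf2l1, and the Hsp70-like exchange factor Hyou1. Their log2 differences ran from -0.10 (Sdf2l1) to 0.54 (Hyou1) in control cells and from -0.51 (Sdf2l1) to 0.31 (Hsp90b1) in cells labelled fld. Hyou1 in control cells (adjusted p = 0.0555) and Sdf2l1 in cells labelled fld (adjusted p = 0.0523) lay closest to the threshold, and both crossed it under several alternatives. Hyou1 passed without control untreated replicate 3 (0.68, adjusted p = 0.0225) or control LPS replicate 1 (0.66, adjusted p = 0.0312). Sdf2l1 passed as lower without control untreated replicate 2 or 3, control LPS replicate 3 or fld LPS replicate 4 (-0.51 to -0.60, adjusted p = 0.0291 to 0.0416). Sdf2l1 read 3.04, 2.75, 3.64 and 3.22 on untreated control arrays and 2.83, 2.89, 3.57 and 2.96 with LPS. On arrays labelled fld its levels were 3.20, 3.10, 3.43 and 3.54 untreated and 2.70, 2.83, 2.62 and 3.10 with LPS. All 4 LPS arrays labelled fld lay at or below the lowest untreated array of that group for Sdf2l1, whose protein assists BiP, while in control cells the groups overlapped. Some values are thin: Pdia6 was flagged on 3 of 4 control LPS arrays and Hsp90b1 on 2 untreated arrays labelled fld, and Dnajc3 read 1.42 on control LPS replicate 1 against 2.61 to 3.06 on the other 3. Without that array Dnajc3 was called higher in control cells (0.47, adjusted p = 0.00928). The 4 probes of Dnajc3 gave control differences between 0.13 and 0.57.

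Of the 4 ER-associated degradation genes only Herpud1 passed the test, in both genotypes. Herpud1 read 3.91, 3.75, 3.85 and 3.79 on untreated control arrays and 5.06, 5.49, 5.04 and 5.27 with LPS. Values in cells labelled fld were 4.25, 4.22, 4.22 and 4.34 untreated and 5.01, 5.46, 4.80 and 5.92 with LPS. The log2 difference of Herpud1 was 1.39 (SE 0.19, adjusted p = 5.9e-05) in control cells and 1.04 (SE 0.19, adjusted p = 6.0e-04) in cells labelled fld. Herpud1 (gene 64209) encodes an ER membrane protein that organises the complex exporting misfolded proteins, and it did not overlap between LPS and untreated arrays. Edem1 (a lectin that sends misfolded glycoproteins to degradation), Sel1l and Syvn1 (the adaptor and the ubiquitin ligase HRD1 of that complex) had log2 differences of -0.01, 0.20 and 0.34 in control cells and -0.22, 0.06 and 0.11 in cells labelled fld. Syvn1 passed in control cells without untreated replicate 3 (0.46, adjusted p = 0.0418). As the mean of its probes its control difference turned to -0.80 (adjusted p = 0.491), and with a normexp background to -0.29 (adjusted p = 0.651). Herpud1 is also the member of this class whose printed window holds the amino acid core.

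Of the sensors and factors, LPS raised Ern1, Xbp1 and Atf4 in both genotypes, while Eif2ak3, Atf6 and Ddit3 were not past the test in either. Ern1 read -0.40, -0.29, -0.84 and -0.24 on untreated control arrays and 0.50, 0.80, 0.10 and 0.36 with LPS. Ern1 was at -0.12, -0.49, -0.04 and -0.50 on untreated arrays labelled fld and at 0.60, 0.90, 0.50 and 1.27 on those with LPS. Ern1 differed by 0.88 (SE 0.20, adjusted p = 0.00343) on the log2 scale in control cells and by 1.1 (SE 0.20, adjusted p = 6.0e-04) in cells labelled fld. Ern1 (gene 78943) encodes IRE1-alpha, the kinase and ribonuclease that splices Xbp1 mRNA, and its groups did not overlap. Xbp1 read 2.20, 2.41, 1.87 and 2.22 on untreated control arrays and 2.90, 2.97, 3.09 and 2.95 with LPS. Untreated arrays labelled fld read 2.12, 2.04 and 2.33 (replicate 2 flagged) for Xbp1, and those with LPS 3.22, 2.83 and 2.99 (replicate 2 flagged). With LPS, Xbp1 had a log2 difference of 0.80 (SE 0.13, adjusted p = 4.5e-04) in control cells and 0.85 (SE 0.15, adjusted p = 7.8e-04) in cells labelled fld. Xbp1 (gene 22433) was flagged on replicate 2 of both groups labelled fld, and its lowest LPS array was above its highest untreated array in each genotype. Splicing of Xbp1 was not measured.

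Atf4 read 3.96, 3.99 and 3.81 (replicate 3 flagged) on untreated control arrays and 4.49, 4.51, 4.48 and 4.43 with LPS. For the arrays labelled fld, Atf4 came to 3.93, 3.86, 3.94 and 3.76 untreated and 4.76, 4.54, 4.23 and 4.71 with LPS. This gave Atf4 a log2 difference of 0.55 (SE 0.12, adjusted p = 0.00341) in control cells and 0.69 (SE 0.11, adjusted p = 3.6e-04) in cells labelled fld. Atf4 (gene 11911), which is regulated chiefly in translation, did not overlap between treatments in either genotype. Atf6 read 2.74, 2.72, 2.67 and 2.61 on untreated control arrays and 2.69, 2.74, 2.80 and 3.05 with LPS. On arrays labelled fld its levels were 2.72, 2.75, 2.66 and 2.49 untreated and 2.86, 2.91, 2.77 and 2.95 with LPS. Its log2 difference from untreated was 0.13 (SE 0.10, adjusted p = 0.331) in control cells and 0.21 (SE 0.10, adjusted p = 0.0856) in cells labelled fld. The Atf6 (gene 226641) difference is small against the spread in control cells, where the groups overlapped, and its LPS arrays labelled fld lay just above the untreated ones. As the mean of its 2 probes, Atf6 passed in cells labelled fld (0.30, adjusted p = 0.0199).

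Eif2ak3 read 1.06, 0.80, 0.98 and 0.77 on untreated control arrays and 0.63, 0.67, 0.97 and 0.84 with LPS. Values in cells labelled fld were 0.57, 0.86, 0.60 and 0.64 untreated and 0.81, 0.46, 0.92 and 0.50 with LPS. The log2 difference of Eif2ak3 was -0.13 (SE 0.13, adjusted p = 0.485) in control cells and 0.00 (SE 0.13, adjusted p = 0.985) in cells labelled fld. Eif2ak3 (gene 13666), the PERK kinase, overlapped between treatments in both genotypes. Ddit3 read 2.32, 2.36, 1.42 and 1.80 on untreated control arrays and 2.73, 2.88, 1.93 and 2.56 with LPS. Ddit3 was at 2.66, 2.21, 2.63 and 2.16 on untreated arrays labelled fld and at 2.32, 3.10, 1.87 and 3.10 on those with LPS. Ddit3 differed by 0.55 (SE 0.30, adjusted p = 0.183) on the log2 scale in control cells and by 0.18 (SE 0.30, adjusted p = 0.655) in cells labelled fld. Ddit3 (gene 13198) encodes CHOP, a factor downstream of Atf4 that is known for its part in cell death under ER stress. Its arrays spread widely within every group: replicate 3 was low in both control groups, and among LPS arrays labelled fld replicates 2 and 4 were high and 1 and 3 low. The 95% interval of its LPS difference ran from -0.08 to 1.18 in control cells and from -0.45 to 0.81 in cells labelled fld.

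**Figure D3:**
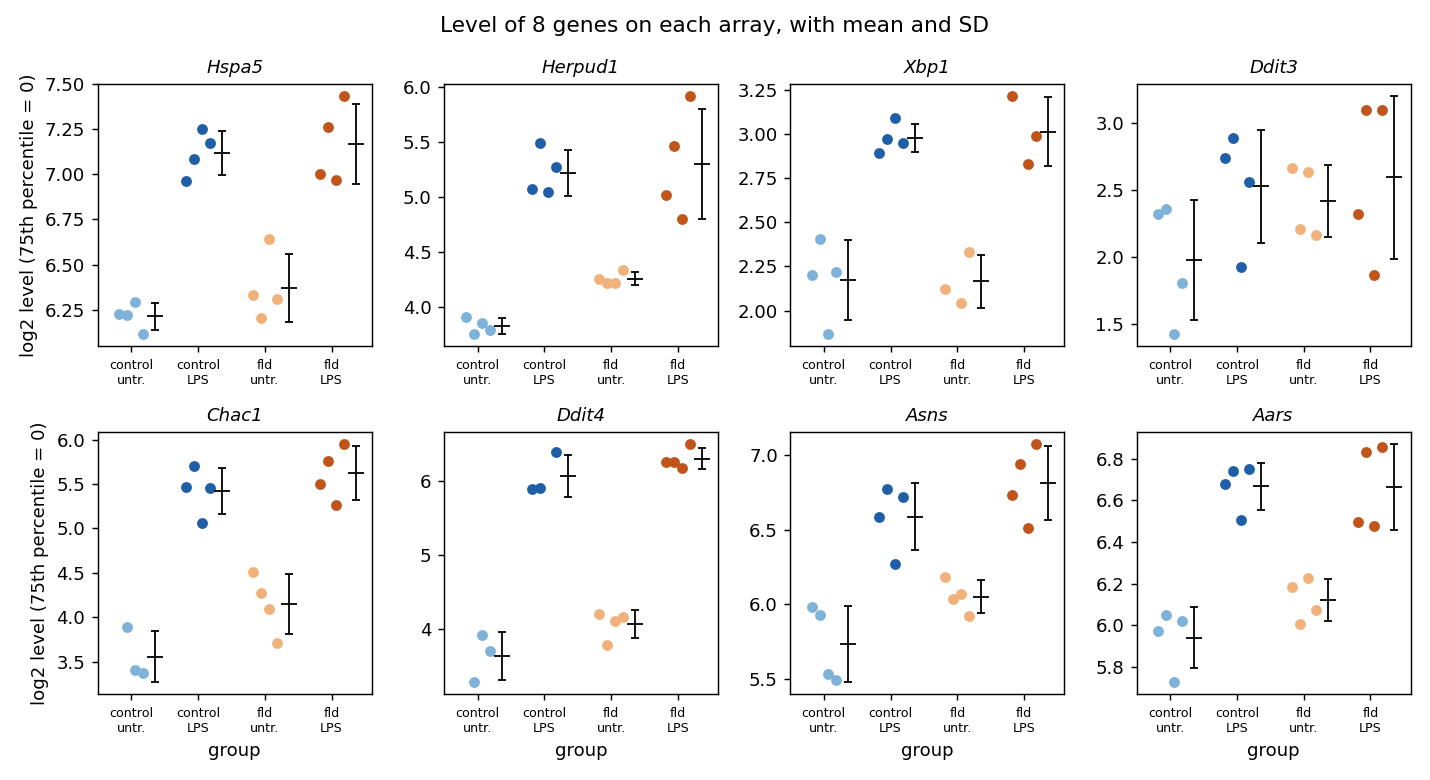
Level of 8 genes on each array (points; log2, 75th percentile of the array = 0), with the mean and SD of each group (black). LPS and untreated arrays stand apart for Hspa5, Herpud1, Xbp1, Chac1, Ddit4, Asns and Aars, and overlap for Ddit3.

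The targets and feedback regulators of the integrated stress response held the largest changes. All 5 rose in control cells and 4 in cells labelled fld, with medians of 1.33 and 1.29. Without the arrays called fld replicate 4, the median in cells labelled fld was 0.93. Ddit4 read 3.27, 3.91 and 3.69 (replicate 1 flagged) on untreated control arrays and 5.90, 5.91 and 6.40 (replicate 3 flagged) with LPS. Untreated arrays labelled fld read 4.19, 3.78, 4.11 and 4.16 for Ddit4, and those with LPS 6.26, 6.26, 6.18 and 6.51. With LPS, Ddit4 had a log2 difference of 2.45 (SE 0.19, adjusted p = 1.2e-06) in control cells and 2.24 (SE 0.16, adjusted p = 7.4e-07) in cells labelled fld. Ddit4 (gene 74747) encodes REDD1, an inhibitor of mTORC1, and every LPS array lay far above the highest untreated array of its genotype. It was flagged on untreated control replicate 1 and control LPS replicate 3. Chac1 read 3.89, 3.41 and 3.37 (replicate 1 flagged) on untreated control arrays and 5.47, 5.70, 5.07 and 5.45 with LPS. For the arrays labelled fld, Chac1 came to 4.51, 4.28, 4.09 and 3.71 untreated and 5.50, 5.76, 5.27 and 5.95 with LPS. This gave Chac1 a log2 difference of 1.86 (SE 0.22, adjusted p = 2.5e-05) in control cells and 1.47 (SE 0.20, adjusted p = 9.3e-05) in cells labelled fld. Chac1 (gene 69065) encodes an enzyme that breaks down glutathione and is a target of Atf4 and Ddit3. Its untreated arrays labelled fld lay mostly above the untreated control arrays, as described with the genotypes, and all LPS arrays lay above both.

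Sesn2 read 4.12, 4.25, 3.72 and 4.10 on untreated control arrays and 5.58, 5.48, 4.89 and 5.57 with LPS. On arrays labelled fld its levels were 4.61, 4.64, 4.59 and 4.23 untreated and 5.54, 5.76, 5.33 and 5.95 with LPS. Its log2 difference from untreated was 1.33 (SE 0.18, adjusted p = 5.8e-05) in control cells and 1.13 (SE 0.18, adjusted p = 2.3e-04) in cells labelled fld. Sesn2 (gene 230784) encodes a leucine sensor upstream of mTORC1, and its lowest LPS array, control replicate 3, was still above the highest untreated array of either genotype. Ppp1r15a read 1.79, 1.84, 1.1 and 1.44 on untreated control arrays and 2.88, 3.13, 1.86 and 2.51 with LPS. Values in cells labelled fld were 1.85, 1.47, 1.98 and 1.09 untreated and 2.54, 3.32, 2.23 and 3.45 with LPS. The log2 difference of Ppp1r15a was 1.05 (SE 0.31, adjusted p = 0.0203) in control cells and 1.29 (SE 0.31, adjusted p = 0.00523) in cells labelled fld. Ppp1r15a (gene 17872, GADD34) directs the phosphatase that ends the response. Its LPS arrays lay above the untreated ones, narrowly so in control cells for LPS replicate 3 against untreated replicate 2. Without control untreated replicate 3, control LPS replicate 1 or control LPS replicate 2, its control difference was 0.90, 0.95 or 0.87 and missed the threshold (adjusted p = 0.0646, 0.0568 and 0.0694). Trib3, a pseudokinase that restrains Atf4, rose by 1.03 on the log2 scale in control cells (adjusted p = 0.0251), where untreated replicate 2 read 4.39 and LPS replicate 3 read 4.30, and its difference in cells labelled fld was 0.71 (adjusted p = 0.0926). Without control untreated replicate 3 or control LPS replicate 1, 2 or 4 the control difference of Trib3 was 0.73, 0.98, 0.90 or 1.02 and missed the threshold (adjusted p = 0.0824, 0.0592, 0.0774 and 0.0543). Trib3 passed in cells labelled fld without control untreated replicate 3 (adjusted p = 0.0499) and without fld LPS replicate 3 (0.92, adjusted p = 0.0383).

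The spread of these 5 regulators within a group went with the brightness of the array. In both LPS groups the 4 arrays ran in the reverse order for the mean of the 5 regulators (relative to untreated control, flagged spots used) and for the 75th percentile of intensity. Among control LPS arrays replicate 3 was the brightest, at 627, with a mean of 1.07, and replicate 2 the dimmest, at 335, with 1.77. Among LPS arrays labelled fld the brightest, replicate 3 at 411, had 1.35 and the dimmest, replicate 4 at 189, had 2.13. In the untreated groups the lowest regulator mean was likewise on the brightest or second brightest array. The 17 chaperone and degradation genes ran in another order. Among control LPS arrays the brightest, replicate 3, had their highest mean, 0.74, against 0.21 to 0.44 on the other 3, while among LPS arrays labelled fld the dimmest, replicate 4, had it, 0.49 against 0.33 to 0.38.

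LPS arrays labelled fld were all dimmer (189 to 411) than untreated ones (413 to 581), so that brightness moved with LPS there, whereas in control cells the ranges overlapped (335 to 627 and 472 to 586). The brightest of the 16 arrays is a control LPS array, and its regulator mean of 1.07 lay above the highest untreated control array, 0.20. With the log2 of the 75th percentile as a covariate, an alternative added after these values were seen, 25 genes were called higher in control cells and 12 in cells labelled fld. Over all 17465 features 2845 and 1985 were, against 2535 and 3777 without the covariate. With that covariate Ddit4, Chac1 and Sesn2 rose by 2.16, 0.95 and 0.70 in cells labelled fld (adjusted p = 5.4e-05, 0.00203 and 0.0101). Ppp1r15a did not pass there (0.32, adjusted p = 0.273), the difference of Trib3 turned from 0.71 to -0.16 (adjusted p = 0.727), and the factor Ddit3 was lower (-0.71, adjusted p = 0.0205). What links brightness and these levels was not tested.

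**Figure D4:**
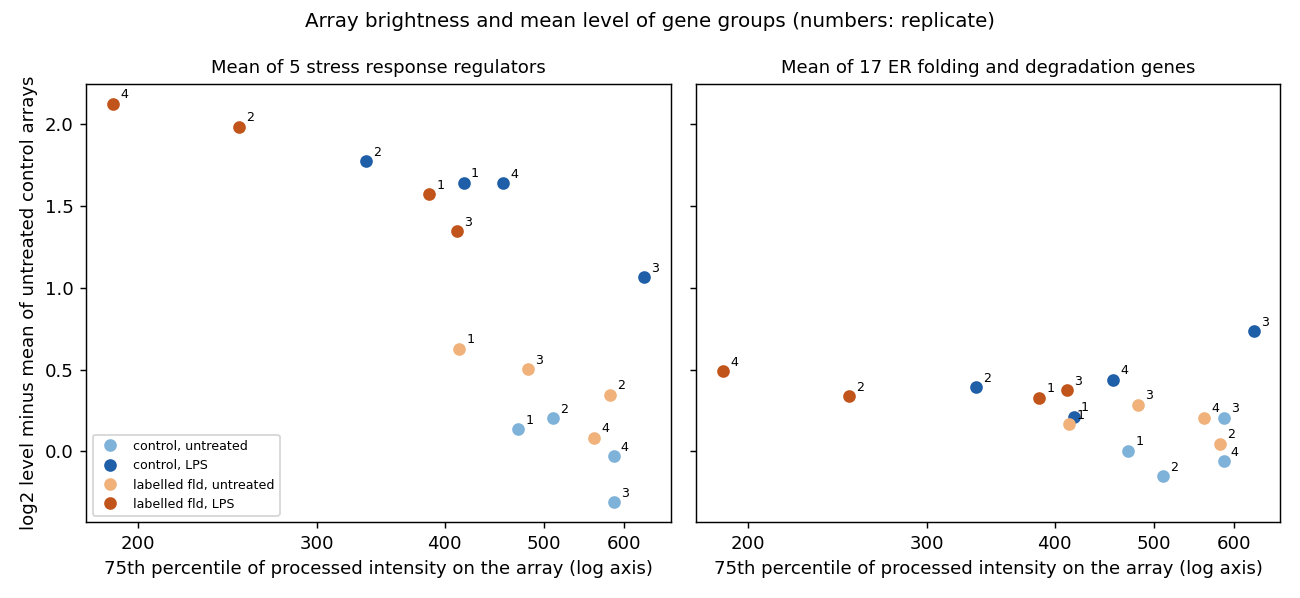
Mean log2 level of the 5 stress response regulators (left) and of the 17 ER folding and degradation genes (right), relative to untreated control, against the 75th percentile of intensity of each array (log axis). Points are arrays, numbered by replicate. Within each LPS group the regulator mean falls as the array gets brighter, and all LPS arrays lie above the untreated arrays of their genotype.

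Genes that supply amino acids rose almost throughout. In control cells 6 of the 7 genes of synthesis, one-carbon metabolism and transport were called higher, and in cells labelled fld the same 6. The medians were 0.79 and 0.62, the latter 0.48 without the arrays called fld replicate 4. Asns read 5.98, 5.93, 5.53 and 5.49 on untreated control arrays and 6.59, 6.77, 6.27 and 6.72 with LPS. Asns was at 6.18, 6.03, 6.07 and 5.92 on untreated arrays labelled fld and at 6.73, 6.94, 6.51 and 7.08 on those with LPS. Asns differed by 0.85 (SE 0.15, adjusted p = 7.1e-04) on the log2 scale in control cells and by 0.76 (SE 0.15, adjusted p = 0.00144) in cells labelled fld. Asns (gene 27053) makes asparagine, and its promoter core is printed above. Every LPS array was above every untreated array of its genotype. Slc3a2 read 6.97, 7.12, 6.92 and 6.89 on untreated control arrays and 8.23, 8.10, 7.61 and 7.86 with LPS. Untreated arrays labelled fld read 7.29, 7.16 and 6.79 (replicate 3 flagged) for Slc3a2, and those with LPS 8.16, 7.97, 7.97 and 7.89. With LPS, Slc3a2 had a log2 difference of 0.98 (SE 0.14, adjusted p = 1.6e-04) in control cells and 0.92 (SE 0.15, adjusted p = 4.4e-04) in cells labelled fld. Slc3a2 (gene 17254) is the heavy chain that pairs with Slc7a5 and other light chains to carry large neutral amino acids. Its arrays did not overlap either.

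Slc7a5 read 3.0, 3.09 and 3.44 (replicate 3 flagged) on untreated control arrays and 3.93, 4.09, 4.10 and 4.18 with LPS. For the arrays labelled fld, Slc7a5 came to 3.6, 3.47, 3.32 and 3.33 untreated and 3.77, 4.13, 3.67 and 4.42 with LPS. This gave Slc7a5 a log2 difference of 0.90 (SE 0.17, adjusted p = 0.00117) in control cells and 0.57 (SE 0.16, adjusted p = 0.0116) in cells labelled fld. Slc7a5 (gene 20539, LAT1) had the weaker change of the pair in cells labelled fld, where it no longer passed without the arrays called fld replicate 4 (0.39, adjusted p = 0.0678). Psat1 read 3.14, 3.15, 2.60 and 2.89 on untreated control arrays and 3.76, 3.77, 3.74 and 3.64 with LPS. On arrays labelled fld its levels were 2.83, 2.64, 3.04 and 2.77 untreated and 3.78, 3.85, 3.32 and 3.92 with LPS. Its log2 difference from untreated was 0.78 (SE 0.15, adjusted p = 1.0e-03) in control cells and 0.90 (SE 0.15, adjusted p = 3.0e-04) in cells labelled fld. Psat1 (gene 107272) encodes an enzyme of serine synthesis. Its untreated and LPS arrays did not overlap. As the mean of its probes Slc3a2 kept its size in control cells but not its call (0.93, adjusted p = 0.146). The mitochondrial one-carbon enzymes Shmt2 and Mthfd2 rose by 0.54 and 0.79 in control cells and by 0.62 and 0.58 in cells labelled fld (adjusted p between 8.9e-04 and 0.0179). Shmt2 missed the threshold in control cells without untreated replicate 3 (0.50, adjusted p = 0.0501) or LPS replicate 4 (0.49, adjusted p = 0.0567). Phgdh, the first enzyme of serine synthesis, did not pass in either, at 0.35 (adjusted p = 0.104) and 0.23 (adjusted p = 0.26), although its control arrays did not overlap, and it passed in control cells when fld LPS replicate 4 was left out of the fit (adjusted p = 0.0442).

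All 5 aminoacyl-tRNA synthetases, which load amino acids onto tRNA, rose in control cells, and all but Wars in cells labelled fld. Aars read 5.97, 6.05, 5.73 and 6.02 on untreated control arrays and 6.68, 6.74, 6.51 and 6.75 with LPS. Values in cells labelled fld were 6.18, 6.0, 6.23 and 6.07 untreated and 6.50, 6.83, 6.48 and 6.86 with LPS. The log2 difference of Aars was 0.73 (SE 0.12, adjusted p = 2.5e-04) in control cells and 0.54 (SE 0.12, adjusted p = 0.00203) in cells labelled fld. The groups of Aars (gene 234734, alanine) did not overlap. Nars read 2.34, 2.45, 2.14 and 2.45 on untreated control arrays and 2.96, 3.07, 2.78 and 3.06 with LPS. Nars was at 2.43, 2.42, 2.33 and 2.54 on untreated arrays labelled fld and at 3.07, 3.03, 2.78 and 3.18 on those with LPS. Nars differed by 0.62 (SE 0.11, adjusted p = 5.9e-04) on the log2 scale in control cells and by 0.59 (SE 0.11, adjusted p = 8.3e-04) in cells labelled fld. Nars (gene 70223, asparagine) was as clearly separated. Cars read 2.98, 2.94, 2.84 and 2.78 on untreated control arrays and 3.47, 3.54 and 3.32 (replicate 3 flagged) with LPS. Untreated arrays labelled fld read 2.99, 3.03, 3.14 and 2.85 for Cars, and those with LPS 3.68, 3.74, 3.26 and 3.73. With LPS, Cars had a log2 difference of 0.56 (SE 0.13, adjusted p = 0.0046) in control cells and 0.60 (SE 0.12, adjusted p = 0.00143) in cells labelled fld. For Cars (gene 27267, cysteine) control LPS replicate 3 was flagged, and fld LPS replicate 3 stood below the others yet above every untreated array. As the mean of its probes Cars did not pass in control cells (0.40, adjusted p = 0.076).

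Gars read 1.06, 0.95, 0.54 and 0.92 on untreated control arrays and 1.44, 1.55, 1.29 and 1.46 with LPS. For the arrays labelled fld, Gars came to 0.90, 0.89, 0.80 and 0.93 untreated and 1.55, 1.08 and 1.68 (replicate 1 flagged) with LPS. This gave Gars a log2 difference of 0.56 (SE 0.14, adjusted p = 0.0066) in control cells and 0.56 (SE 0.15, adjusted p = 0.00916) in cells labelled fld. Gars (gene 353172, glycine) was flagged on fld LPS replicate 1, and without the arrays called fld replicate 4 its difference was 0.45 (adjusted p = 0.0604). With array brightness as a covariate Aars, Cars, Gars, Asns and Slc7a5 did not pass in cells labelled fld, at 0.28, 0.36, 0.19, 0.36 and 0.30 (adjusted p = 0.0908, 0.0769, 0.445, 0.0665 and 0.276), and neither did Shmt2 and Mthfd2, at 0.30 and 0.27 (adjusted p = 0.249 and 0.237). Wars (tryptophan), which is also known as a gene induced by interferon, rose by 0.32 in control cells (adjusted p = 0.0494), where its arrays did not overlap, and read -0.13 in cells labelled fld (adjusted p = 0.399). That call lies at the threshold and was lost when any 1 of the 8 control arrays was left out (0.29 to 0.35, adjusted p = 0.0586 to 0.112). The 2 Wars probes gave 0.32 and 0.31 in control cells and -0.13 and -0.11 in cells labelled fld.

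Other genes of these pathways, from lists of 26 ER folding and secretion genes, 17 degradation and regulator genes, 14 integrated stress response genes (12 tested), 14 amino acid and one-carbon genes and 15 further tRNA synthetases, moved in both directions. In control cells 7, 4, 9, 8 and 6 of them were called higher and 2, 1, 2, 1 and 0 lower. In cells labelled fld 4, 4, 6, 8 and 6 were higher and 5, 4, 2, 1 and 0 lower. The largest rises were in Aldh1l2 (mitochondrial folate dehydrogenase; 3.29 and 2.53 in control cells and cells labelled fld), Cth (cystathionine gamma-lyase; 2.47 and 2.28) and Slc7a11 (the cystine transporter; 1.53 and 1.2), while the glycine transporter Slc6a9 fell by 1.06 and 1.70 on the log2 scale.

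Among further ER genes Ero1l, the oxidase that drives disulfide formation, rose by 0.95 and 0.94, and Creb3l2, an ER-bound factor related to Atf6, by 1.15 and 1.11. Sec61a1, a subunit of the translocation channel, rose by 0.68 and 0.59. Erp29 fell by 0.51 and 0.84, and Derl1, a channel component of ER-associated degradation, by 0.47 and 0.74. Of the integrated stress response genes, the secreted factor Gdf15 rose by 1.16 and Nupr1 by 0.91 in control cells, and Stc2 rose by 0.90 and 0.62 in the 2 genotypes. Eif2ak4 (GCN2), the kinase that senses uncharged tRNA, fell by 0.45 and 0.44. In cells labelled fld Eif2ak2 (PKR) fell by 1.13 and Cebpb rose by 0.62. In control cells the difference of Eif2ak2 was -0.525 and not past the test, and Cebpb was called higher there as well.

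Between genotypes no member passed the test, without LPS or with it. Without LPS 4.91% of all features were called higher and 0.218% lower in cells labelled fld, and with LPS 16.1% and 0.916%. Without LPS 33 of the 40 differences were positive, as were 10576 of 17465 over all features, and the median was 0.16 against 0.06. The 6 genes with an unadjusted p under 0.05 were Herpud1, Chac1, Ddit4, Sesn2, Mthfd2 and Wars, all higher in cells labelled fld, where 18.5% of features had such a p. Dnajc3, Herpud1 and Wars did not overlap between the genotypes, as 13.3% of features did not in that direction.

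The largest differences without LPS were in Chac1, at 0.59 (SE 0.22, adjusted p = 0.146), and Sesn2, at 0.47 (SE 0.18, adjusted p = 0.155). For Chac1 the 3 usable untreated control arrays read 3.37 to 3.89 and the arrays labelled fld 3.71 to 4.51, with the lowest on replicate 4. Without the pair called fld replicate 4, Chac1 was higher by 0.74 (adjusted p = 0.0466), the only member called in that setting, and Sesn2 by 0.57 (adjusted p = 0.0751). Herpud1 was at 0.43 with the pair (adjusted p = 0.227) and 0.40 without it (adjusted p = 0.13).

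With LPS only Pdia6, read on 1 control LPS array, did not overlap between genotypes (lower in cells labelled fld, as 2.6% of features were), and in the other direction none did, against 17.7% of features. No member reached an unadjusted p of 0.05, where 26.6% of all features did, and the median difference was 0.04 against 0.03 for all features. The differences lay between -0.28 (Pdia3) and 0.38 (Ern1), and without the pair called fld replicate 4 the median was -0.05. When arrays were scaled by their median, 20 members were called lower in cells labelled fld with LPS, as were 6451 of all 17465 features. The median over all features then moved to -0.37, and that of the members was -0.37. That scaling also turned the share of all called features that were higher in cells labelled fld with LPS from 94.6% to 23.6%, and quantile normalization to 74.4%. In the LPS comparison within cells labelled fld that share was 54.6%, against 29.6% with median scaling, 43.8% with a normexp background and 66.7% with that background reset.

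No gene differed between genotypes in its LPS response after adjustment, among the members or over all features (0 of 17465 by limma, with 1629 features, or 9.33%, at an unadjusted p under 0.05, 7 called lower with median scaling, and 4 higher and 9 lower with quantile normalization). The unadjusted p was under 0.05 for 3 members, Wars (-0.45), Creld2 (-0.61) and Pdia3 (-0.46), each with the smaller or opposite response in cells labelled fld (adjusted p = 0.394, 0.469 and 0.533). The LPS difference was larger in control cells for 28 of the 40, and for 14 of the 17 chaperone and degradation genes. Over all features 8639 of 17465 were larger in control cells. The median of the difference between responses was -0.23 for the 17 genes and 0.003 for all features, and -0.24 and 0.004 without the pair called fld replicate 4. It was -0.13 with quantile normalization (all features 0) and -0.45 with median scaling (all features -0.22). The other 26 ER folding and secretion genes had a median of -0.18, with 25 of 26 larger in control cells. With flagged spots used, the gap of Creld2, which rests on 2 control LPS arrays, was -0.38 (adjusted p = 0.682), and those of Pdia3 and Wars were -0.46 and -0.45 (adjusted p = 0.528 and 0.397).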

How the data were processed

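The arrays were Agilent single-colour arrays (design 014868). Per the file headers, the deposited intensity values were made with Feature Extraction 9.5.1.1, which subtracted background, removed spatial trends and replaced the signal of dim spots by surrogates. The authors' deposited value table holds the signal of each probe divided by the array's median, and served as an alternative. No source used here names a genome build for the probes, and probe coordinates are not printed.

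Here, log2 intensity minus each array's 75th percentile was used. Outlier-flagged spots were left out, and probes had to exceed background well on all 4 arrays of at least 1 group. The brightest kept probe stood for its gene. The 4 groups were fitted together in R 4.3.3 with limma 3.58.1 (lmFit, eBayes), with 5 contrasts, two-sided, with Benjamini-Hochberg adjustment over all 17465 features. The script was tested on simulated data. The number of arrays limits the precision.

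The members and gene lists were chosen with earlier results of these data known. The 23 genes given array by array by rule were the 6 sensors and factors, Hspa5, Chac1, any member called between genotypes and, in each role, up to 4 with the largest absolute difference among those called in either LPS comparison; Sdf2l1 was added after its values were seen. Of each other pathway list, up to 3 called genes per direction and comparison could be named. Replicate numbers did not pair the arrays. Alternatives covered background, scaling, filters, probe choice, outlier flags, the replicate block, each array left out, and array brightness as a covariate, the last chosen after seeing the data. The files list Manf as Armet, Sel1l as Sel1h and Ppp1r15a as Myd116.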

Additional observations from a re-analysis of the deposited data

Results flagged for a closer look

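Among 121 groups of 4 arrays examined, 5 held an array far from the other 3, where chance gives about 1 in 20. Manf read 4.62 on fld LPS replicate 2 and 4.86 on each of the others. Sesn2 read 4.89 on control LPS replicate 3, against 5.48 to 5.58, and 4.23 on fld untreated replicate 4, against 4.59 to 4.64. Cars read 3.26 on fld LPS replicate 3, against 3.68 to 3.74. The mean of the 5 aminoacyl-tRNA synthetases, relative to untreated control, was -0.175 on untreated control replicate 3, against 0.043 to 0.070.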

How the results depend on the processing

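The normexp background lowered the members called higher with LPS from 24 to 2 in control cells (chaperones and degradation 5 to 0, sensors, factors and regulators 8 to 2, amino acid genes 11 to 0) and from 20 to 2 in cells labelled fld (3 to 0, 7 to 2 and 10 to 0). Over all 17465 features the calls of higher went from 2535 to 499 and from 3777 to 592. In cells labelled fld, 12 members were called higher with array brightness as a covariate (amino acid genes 3), and median scaling left 6 amino acid genes. Of all 17465 features 1985 and 1965 were called higher there in these 2 settings. Members called lower there went from 0 to 1 with the normexp background reset, the stricter filter, trend and robust eBayes and the replicate block (each Sdf2l1), to 2 with median scaling (Sdf2l1 and Wars) and to 1 with the covariate (Ddit3). Without the arrays called fld replicate 4, 1 member (Chac1) was called higher in untreated cells labelled fld, as were 1054 of all 17465 features. Median scaling called 20 members lower with LPS between genotypes, and 6451 of all features. Leaving out 1 array gave 21 to 25 members called higher in control cells, 20 to 21 in cells labelled fld, and 0 to 1 lower in the latter. Over all features 1985 to 2954 were then called higher in control cells and 2776 to 4028 in cells labelled fld.

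Among the 23 genes given array by array, signs turned as follows. With the normexp background the LPS difference was -0.33 for Atf6 and -0.068 for Cars in control cells, and -0.14 for Creld2, -0.16 for Eif2ak3, -0.10 for Atf6 and -0.11 for Ddit3 in cells labelled fld. With median scaling it was -0.24 for Eif2ak3, -0.0282 for Atf6 and -0.0632 for Ddit3 there. Eif2ak3 was -0.0719 with the normexp background reset and between -0.0788 and 0.074 when 1 array was left out. Ddit3 was between 0.0121 and 0.423 without 1 array, -0.0729 without the arrays called fld replicate 4 and -0.71 with the covariate. Of the other 17 members, a sign turned under at least 1 alternative for 13 in control cells and 11 in cells labelled fld, and among those called for Wars alone (-0.13 with the normexp background in control cells). With the covariate Trib3 was -0.16, Phgdh -0.10, Sel1l -0.11, Pdia3 0.08, Canx 0.14 and Edem1 0.04 in cells labelled fld. Quantile normalization ended the control calls of Trib3 (0.83, adjusted p = 0.0661), Shmt2 (0.41, adjusted p = 0.0925) and Wars (0.23, adjusted p = 0.2), by limma. The cause of these changes was not tested.

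Same-numbered arrays had correlated deviations of -0.101 to 0.258, over 0.1 in 3 of 8 pairs. With the replicate block, 24 members were called higher in control cells, and 21 higher and 1 lower in cells labelled fld. Of the 17464 features tested there, 2465 were called higher in control cells, and 3943 higher and 3027 lower in cells labelled fld. In control cells the block added Hyou1 (adjusted p = 0.00503) and ended Wars (adjusted p = 0.0733), and in cells labelled fld it added Manf (adjusted p = 0.02) and Sdf2l1 as lower (adjusted p = 0.00947), by limma. Signal over background, 4 arrays a group and 1 slide for each group limit what these comparisons can show.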
